A study of Mus musculus and Rattus norvegicus with 11 samples.

Results

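Complement transcripts of the peripheral nerve were followed through 9 mouse genes: C1qa, C1qb and C1qc, which encode the chains of the recognition molecule C1q; C1ra and C1s1, which encode its proteases C1r and C1s; C2, C4b and C3, which encode the components cleaved next; and Serping1, which encodes C1 inhibitor. They were chosen by symbol from the 31053 genes of the mouse count table, and 7 of the 9 symbols also stand in the rat table of 32883 genes, where C1r and C1s took the place of the other 2. Droplet 3' single-cell RNA sequencing covered live-sorted, myelin-depleted cells of the brachial plexus and sciatic nerve from mice labelled Icam1 knockout on the NOD background (3 libraries), NOD control mice (3 libraries, of which 2-1 and 2-2 share a number in their titles and were summed as sample 2) and C57BL/6 mice (libraries 1, 3 and 4), and unsorted sciatic nerve cells from naive Lewis rats (2 libraries). In this series the mice labelled Icam1 knockout on the NOD background stand for chronic autoimmune nerve inflammation. NOD control mice are controls by their label, and the C57BL/6 mice and rats stand for healthy nerve. Both NOD groups carry the background of that autoimmunity-prone inbred strain. The labels write the knockout group as ICAM-1-1/-NOD and give neither ages nor how many animals a library pools.

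In the classical pathway C1q binds an antibody or a surface, C1r activates C1s, and C1s cleaves C4 and C2 into a convertase that cleaves C3. C1 inhibitor binds C1r and C1s and stops them. Plasma complement comes mostly from the liver, while in other tissues macrophages are the best known source of C1q and fibroblasts make several of the later components. Values below are counts of unique molecular identifiers (UMIs, 1 per captured transcript end), given per 1000000 UMIs of a cell set (CPM). They are not scaled by gene length because the assay counts 3' ends.

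Mouse libraries held 400 to 3800 barcodes with 571042 to 6631004 UMIs, and the rat libraries 6000 and 6500 barcodes with 17958844 and 19074026 UMIs. Of 16050 mouse barcodes, 15672 carried a deposited cell type name, and 325 had a sequence that also occurred in another library. Icam1 was at 246.0 to 259.4 CPM in the libraries labelled Icam1 knockout, against 44.13 to 94.48 CPM in NOD control and 47.28 to 88.52 CPM in C57BL/6 libraries, and a 3' count reports on neither the deleted part nor the protein. Leukocytes were 91.48% to 91.85% of named cells in the libraries labelled Icam1 knockout. They were 8.857% to 34.06% in NOD control libraries and 7.501% to 49.62% in C57BL/6 libraries. No label ties a library to its own animals, so every p-value measures only the spread between these libraries.

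Deposited cell type names are used as given. Cells named MP (C57BL/6) and MC (NOD) carried macrophage genes. The summed level of 8 macrophage markers was 2590 CPM in MC with the knockout label, 2053 CPM in MC of NOD control and 1190 CPM in MP. Aif1 (1169 against 253 CPM) and Fcgr1 (482 against 155 CPM) were higher in MC with the knockout label than in NOD control. Adgre1, Csf1r, Mrc1, Cd163, Cd68 and Mertk were lower. PF4 MC is the rat type read as macrophages, and no marker sum is given for it here. Cells named nmSC went against a Schwann cell reading of that name. Their 5 pan fibroblast markers (Pdgfra, Col1a1, Col1a2, Dcn, Lum) summed to 80473 CPM with the knockout label, 67327 CPM in NOD control and 76012 CPM in C57BL/6, while 4 pan Schwann markers reached 157 to 214 CPM. Markers of endoneurial fibroblasts (Sox9, Osr2, Wif1, Abca8a) reached 1623 to 2003 CPM in nmSC and 255 to 449 CPM in fibro, whose epineurial markers (Pi16, Sfrp2, Clec3b, Ly6c1) reached 6874 to 10377 CPM. The few cells named EP (NOD) and EC2 (C57BL/6) led in perineurial markers, with 4488 CPM in EP of NOD control and 4076 CPM in EC2.

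Most members lie in gene clusters (GRCm38, GENCODE gene models). C1qb (chr4:136880129-136886187), C1qc (chr4:136889804-136893065) and C1qa (chr4:136895917-136898803) stand side by side on the minus strand, with 3616 and 2851 bases between them. C1ra (chr6:124512405-124523443, plus strand) and C1s1 (chr6:124530345-124542359, minus strand) lie 6901 bases apart, and each has a near copy further along, C1rb (chr6:124570294-124581171) and C1s2 (chr6:124624625-124636085). C4b (chr17:34728380-34743882) and C2 (chr17:34862604-34898265) share a stretch of chromosome 17, where 85 bases separate C2 from Cfb, the factor B gene. C3 (chr17:57203970-57228136) is on the same chromosome and Serping1 (chr2:84765387-84775444) stands alone.

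Promoter sequence is shown for 2 members of the C1q cluster and for C3, because the C1q chains varied together between cell types and C3 did not follow them. The bases come from RefSeq (GRCm38.p6), minus strand, 5′ to 3′: chr4:136886201-136886450 for C1qb, chr4:136893066-136893164 for C1qc (the part of the window outside the annotated gene) and chr17:57228137-57228386 for C3. Capitals mark a GAGGAA (or TTCCTC on the other strand), the core letters that the myeloid factor PU.1 binds, in C1qb and C1qc, and a TTGCNNAA, letters bound by C/EBP factors, in C3.
C1qb: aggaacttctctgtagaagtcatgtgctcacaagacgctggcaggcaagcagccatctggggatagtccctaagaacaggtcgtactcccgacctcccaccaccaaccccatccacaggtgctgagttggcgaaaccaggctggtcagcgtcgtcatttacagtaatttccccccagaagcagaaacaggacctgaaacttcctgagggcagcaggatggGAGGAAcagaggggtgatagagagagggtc
C1qc: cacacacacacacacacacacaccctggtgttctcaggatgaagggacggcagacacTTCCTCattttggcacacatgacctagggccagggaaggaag
C3: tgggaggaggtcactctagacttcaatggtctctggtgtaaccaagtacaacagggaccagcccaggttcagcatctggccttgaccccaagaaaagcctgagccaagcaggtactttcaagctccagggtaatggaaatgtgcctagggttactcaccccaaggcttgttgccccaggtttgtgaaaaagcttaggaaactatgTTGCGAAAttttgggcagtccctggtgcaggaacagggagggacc

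The GAGGAA match began 43 bases before the GENCODE start of C1qb and 42 bases before that of C1qc, and the TTGCNNAA match 45 bases before that of C3. RefSeq places the starts of C1qb and C1qc elsewhere, and from those the distances are 30 and 193 bases. Over both strands of the 250 bases before the RefSeq start, GAGGAA was in 2 of the 7 promoters at hand (5 members and both copies), and in 23.13% of 27025 mouse promoters. TTGCNNAA was in 3 of the 7 (C3, C1s1 and C1rb) and in 9.554% of all. The interferon response element, GAAA repeated after 2 bases of any kind, was in 0 of the 7 and in 3.038% of all. Each window shown holds 1 match of the 3 patterns, so none overlap there. Such matches describe the letters and do not show binding.

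C1q was a macrophage transcript set in every group. Summed over the 3 chains, MC with the knockout label averaged 4180 ± 1324 CPM (SD, n = 3), MC of NOD control 4864 ± 472 CPM (SD, n = 2) and MP of C57BL/6 4224 ± 2380 CPM (SD, n = 3). MC had 5485, 2839 and 4216 CPM in the libraries labelled Icam1 knockout 1 to 3, and 4531 and 5198 CPM in NOD control 1 and 2. Library 2 labelled Icam1 knockout was lowest, and the groups overlapped. Those cells held 92.0% of all C1q UMIs in the libraries labelled Icam1 knockout, 94.8% in NOD control and 98.7% in C57BL/6, although they were 4.12%, 4.11% and 4.39% of cells. In C57BL/6 no other type with 20 or more cells in every library averaged above 10 CPM. Cells named pDC, plasmacytoid dendritic cells by name, had 0 C1q UMIs among 124480 in the libraries labelled Icam1 knockout and 0 among 9313 in NOD control.

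**Figure D1:**
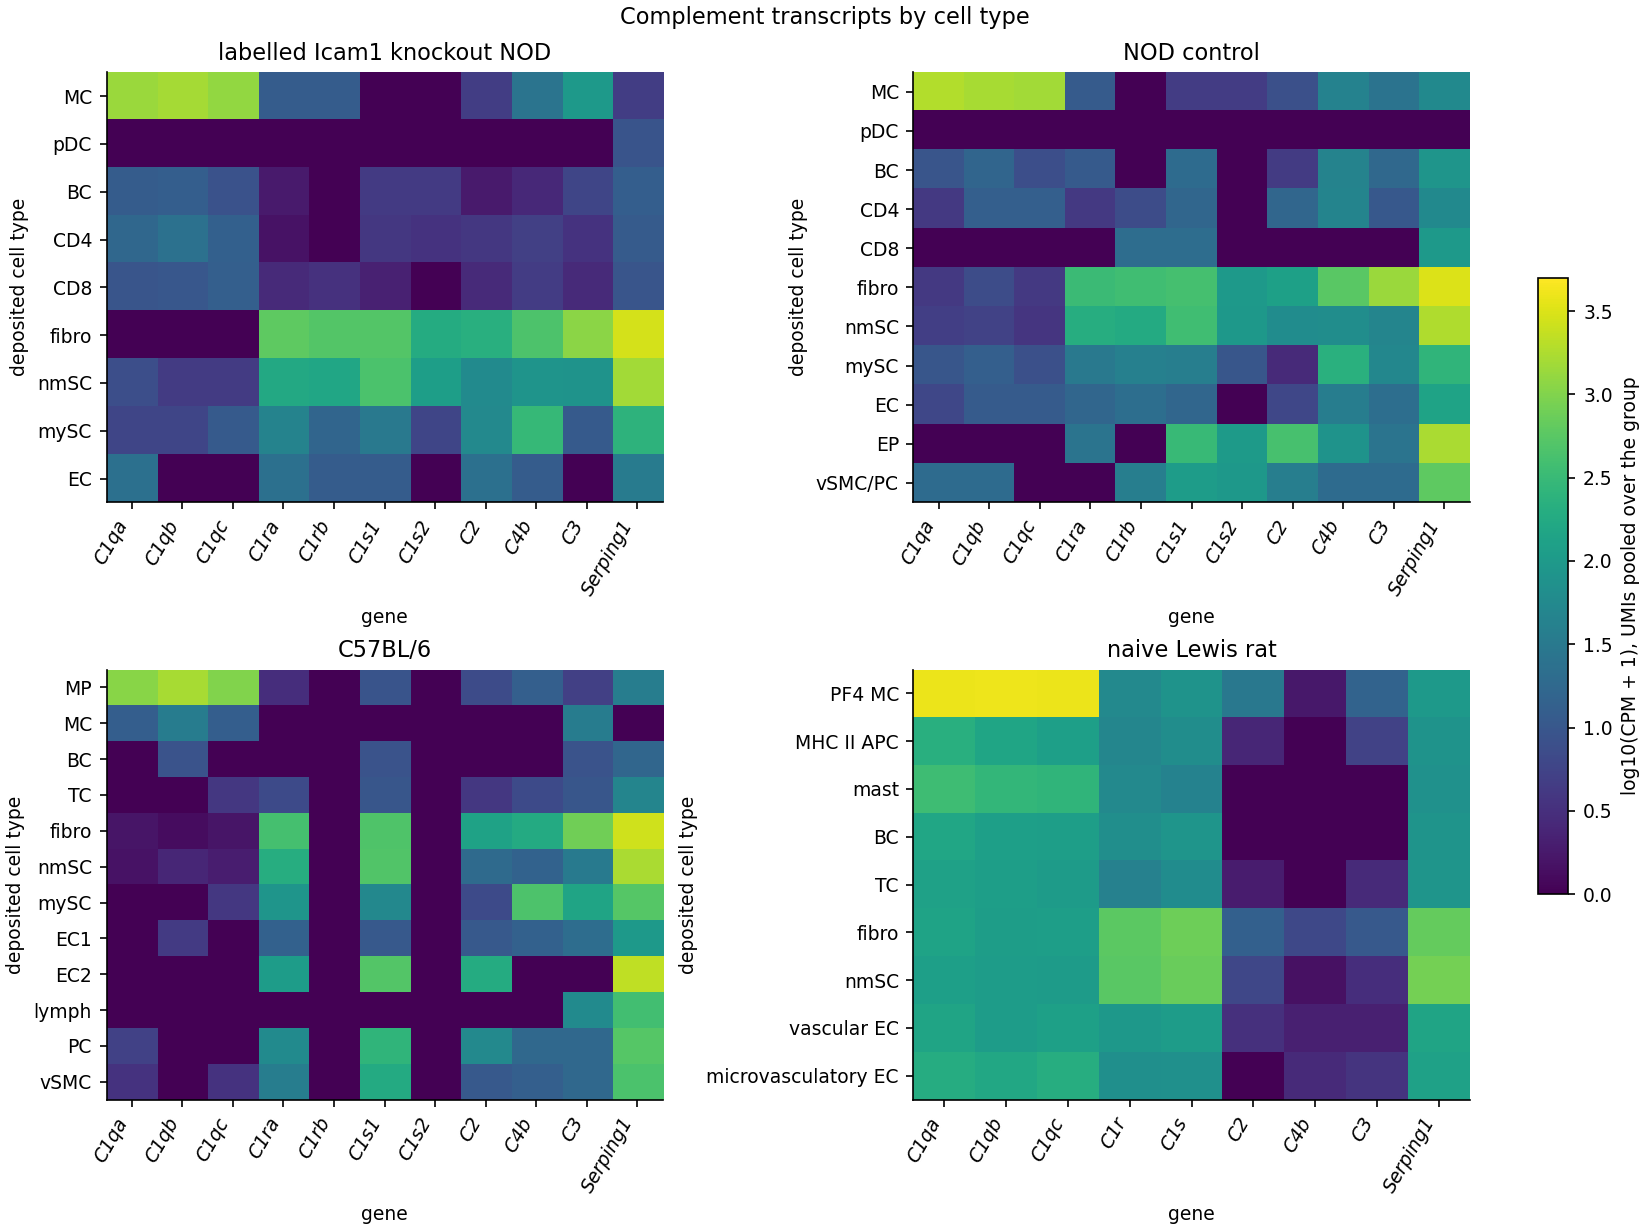
Levels of the members and near copies in each deposited cell type, as log10(CPM + 1) of UMIs pooled over a group (colour), with rows for cell types and columns for genes. The C1q chains are bright in 1 macrophage row of each panel, while C1r, C1s and Serping1 genes are bright in fibro and nmSC; C1rb and C1s2 are at 0 in every C57BL/6 row.

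Not every cell of the macrophage types carried a C1q UMI. At least 1 was seen in 35.8% of MC with the knockout label, 57.7% of MC of NOD control and 52.8% of MP of C57BL/6 (means over samples). With each cell thinned to 500 UMIs the shares were 30.5%, 54.8% and 48.0%. In C57BL/6 the libraries differed widely: MP had 6938 CPM in library 1, 3240 CPM in library 3 and 2493 CPM in library 4. The same 3 libraries had 77.8%, 51.3% and 29.4% of MP with a C1q UMI.

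Lymphocytes, which are not known to make C1q, also carried some of its UMIs, and whether these come from free RNA or doublets was not tested. In the libraries labelled Icam1 knockout the C1q sum was 51.9 ± 20.2 CPM in CD4, 30.7 ± 23.0 CPM in BC and 29.6 ± 8.9 CPM in CD8 (SD, n = 3 each), with a UMI in 4.60%, 3.25% and 3.80% of cells. Levels of 20.5 ± 7.0 CPM in mySC and 16.9 ± 21.1 CPM in nmSC (SD, n = 3 each) were no higher than those. The origin of the C1q UMIs in mySC and nmSC was not tested either.

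The 3 chains were counted in similar proportions. C1qa, C1qb and C1qc gave 32.6%, 37.8% and 29.5% of C1q UMIs in MC with the knockout label. They gave 37.2%, 32.5% and 30.3% in MC of NOD control and 29.0%, 43.9% and 27.0% in MP of C57BL/6. In rat PF4 MC the shares were 33.1%, 34.1% and 32.8%. Each C1q molecule holds equal numbers of the 3 chains, and the UMI shares lay between 27.0% and 43.9% in the macrophage types.

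Rat macrophages carried more C1q per UMI than any mouse type, given side by side and without a test because builds, tissue preparation and depth differ. PF4 MC had 12350 CPM in rat 1 and 11026 CPM in rat 2, with a C1q UMI in 98.5% of cells (94.7% after thinning to 500 UMIs). C1qa was at 4077 and 3657 CPM in rats 1 and 2, C1qb at 4191 and 3780 CPM and C1qc at 4083 and 3588 CPM. Every other rat type with 20 or more cells per library averaged 342 to 563 CPM, with a UMI in 43.8% to 67.4% of cells before and 14.0% to 19.3% after thinning. T and B cells stood inside that band, at 352 and 391 CPM, and the origin of the C1q UMIs in these types was not tested. The 37 mast cells pooled 896 CPM (84 UMIs). MHC II APC, the other antigen-presenting rat type, averaged 489 CPM, inside the band of 342 to 563 CPM. C1qa, C1qb and C1qc gave 44.5%, 30.5% and 25.0% of its 1317 C1q UMIs.

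The genes most like the C1q sum over 74 mouse cell type by library sums, by Pearson correlation of log2(CPM + 10) among 8452 candidates, were C5ar1 (0.93), Ccl12 (0.93), Adgre1 (0.93), P2ry6 (0.92) and Fcgr3 (0.91). C5ar1 encodes the receptor for the complement fragment C5a and Adgre1 the F4/80 macrophage antigen. The C1q sum had a correlation of 0.00 with C3 and C4b, -0.27 with C1ra, -0.35 with C1s1 and -0.37 with Serping1. These points share libraries and their free RNA, and the values are descriptions.

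C1r, C1s and C1 inhibitor belonged to the stroma. C1s1 averaged 444 ± 116 CPM in nmSC with the knockout label (SD, n = 3). In NOD control it averaged 393 ± 89.8 CPM in fibro and 370 ± 20.8 CPM in nmSC (SD, n = 2 each), and in C57BL/6 440 ± 106 CPM in fibro and 443 ± 116 CPM in nmSC (SD, n = 3 each). Pericyte-named PC and smooth muscle-named vSMC of C57BL/6 had 189 and 190 CPM. Both fibroblast-like types thus carried C1s1 at levels that did not differ beyond their spread, while macrophage types held 0 C1s1 UMIs with the knockout label, 1 in NOD control and 4 in C57BL/6.

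Serping1 was at 1521 ± 306 CPM in nmSC with the knockout label (SD, n = 3). In NOD control it reached 3215 ± 29.6 CPM in fibro and 1837 ± 282 CPM in nmSC (SD, n = 2 each), and in C57BL/6 2412 ± 636 CPM in fibro and 1543 ± 330 CPM in nmSC (SD, n = 3 each). At least 1 UMI was seen in 86.2% of fibro and 72.9% of nmSC cells of C57BL/6. Perineurial-marker cells also carried it: EP of NOD control pooled 1686 CPM and EC2 of C57BL/6 2223 CPM (60 UMIs). Cells of the myelinating Schwann cell type, mySC, were lower, at 245 ± 60.2 CPM with the knockout label and 505 CPM in C57BL/6. Together fibro and nmSC held 94.8% of Serping1 UMIs in C57BL/6.

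C1ra followed the same types. It averaged 164 ± 49.9 CPM in nmSC with the knockout label (SD, n = 3), 346 ± 149 CPM in fibro and 210 ± 125 CPM in nmSC of NOD control (SD, n = 2 each), and 363 ± 48.5 CPM in fibro and 185 ± 43.0 CPM in nmSC of C57BL/6 (SD, n = 3 each). Over the 74 sums, C1s1 had a correlation of 0.89 with Serping1 and 0.72 with C1ra. The genes most like C1s1 outside the members were Pcolce (0.92), Sdc2 (0.91), Ebf2 (0.91), Islr (0.90) and Bgn (0.90). Pcolce encodes an enhancer of procollagen processing and Bgn the matrix proteoglycan biglycan.

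In rat the 2 proteases had the same cells. C1r was at 612 and 568 CPM in fibro of rats 1 and 2 and at 582 and 544 CPM in nmSC, and C1s at 795 and 727 CPM in fibro and 752 and 672 CPM in nmSC. PF4 MC had 47.9 and 58.9 CPM of C1r and 78.2 and 77.2 CPM of C1s, within the range of the other rat types. Serping1 was at 861 and 822 CPM in rat nmSC, and at 685 and 669 CPM in fibro. Rat nmSC was above rat fibro for Serping1 in both libraries, while the mouse groups with both types had fibro above nmSC.

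C3, the central component, was a fibro transcript in mouse. Fibro cells averaged 1426 ± 265 CPM in NOD control (SD, n = 2) and 916 ± 212 CPM in C57BL/6 (SD, n = 3), with a UMI in 69% and 59% of cells, and the 20 fibro cells with the knockout label pooled 1141 CPM (42 UMIs, 95% exact Poisson interval 822 to 1542). nmSC stood far lower, at 82.5 ± 58.5 CPM with the knockout label, 47.5 ± 10.8 CPM in NOD control and 25.1 ± 12.0 CPM in C57BL/6. Of all C3 UMIs, fibro held 86.3% in NOD control and 94.5% in C57BL/6. The genes most like C3 were Pi16 (0.86), Dpt (0.85), Mmp23 (0.83), Sfrp4 (0.82) and Osr1 (0.81). Pi16 and Dpt mark fibroblasts of the outer connective tissue in mouse, and Pi16 is in the epineurial marker list given above.

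In rat C3 was near the floor everywhere. PF4 MC had 14.7 and 13.8 CPM in rats 1 and 2 (41 and 37 UMIs) and fibro 8.95 and 10.6 CPM (61 and 67 UMIs). C2 was at 32.5 and 25.0 CPM in rat PF4 MC and 10.7 and 14.8 CPM in rat fibro. C4b was at 4.99 and 5.52 CPM in rat fibro, beside 4.25 and 5.04 CPM for its near copy C4a. The order of types for C3 and C2 thus had macrophages first in rat and fibro ahead of macrophages in mouse.

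C4b had 2 homes in mouse, the myelinating Schwann cell type and fibro. mySC averaged 322 ± 157 CPM with the knockout label (SD, n = 3) and 419 ± 79.6 CPM in C57BL/6 libraries 1 and 3 (SD, n = 2), and in NOD control had 0 CPM in sample 1 (20 cells) and 227 CPM in sample 2 (740 cells). Fibro averaged 561 ± 64.9 CPM in NOD control (SD, n = 2) and 199 ± 21.2 CPM in C57BL/6 (SD, n = 3). With the knockout label mySC was 2.42% of cells and held 45.9% of C4b UMIs. Mouse C4a, a near copy of C4b, was not analysed here, so reads that fit both may be in either.

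C2 was low and stromal in mouse. With the knockout label it averaged 63.5 ± 45.6 CPM in mySC and 58.8 ± 20.2 CPM in nmSC (SD, n = 3 each). In NOD control it was at 123 ± 34.8 CPM in fibro and 62.5 ± 18.0 CPM in nmSC (SD, n = 2 each), and in C57BL/6 at 90.0 ± 50.3 CPM in fibro and 29.2 ± 11.8 CPM in nmSC (SD, n = 3 each). The highest level of C2 was in EP of NOD control, with 415 CPM from 16 UMIs. Macrophage types of mouse held 2 C2 UMIs in the libraries labelled Icam1 knockout, 2 in NOD control and 3 in C57BL/6.

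The first comparison asked what differed in nerve cells with the knockout label against NOD control. Myeloid cells (MC and pDC) had less C1qa: 1496, 631 and 1221 CPM in the libraries labelled Icam1 knockout 1 to 3, against 1761 and 1813 CPM in NOD control 1 and 2. All 3 labelled libraries were below both NOD control samples, and library 2 was lowest. C1qa fell by 0.84 ± 0.27 on the log2 scale (SE, adjusted p = 0.0465, edgeR quasi-likelihood test with Benjamini-Hochberg adjustment). Of the 9 members 4 had enough UMIs for the test here, and C1qa was the 1 that passed, where 16.4% of all 3514 genes tested were called and 8.28% were called lower.

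C1qb had 1696, 822 and 1359 CPM in the libraries labelled Icam1 knockout, against 1436 and 1633 CPM in NOD control, and the groups overlapped. C1qc had 1206, 738 and 1088 CPM in the libraries labelled Icam1 knockout, against 1178 and 1593 CPM in NOD control, and the groups overlapped. Their log2 fold changes of -0.41 ± 0.25 and -0.63 ± 0.23 missed the threshold (edgeR adjusted p = 0.301 and 0.0751). In the DESeq2 test C1qa had an adjusted p of 0.112, and it was not called without library 2 or 3 labelled Icam1 knockout (edgeR adjusted p = 0.149 and 0.0546) or without NOD control 1 or 2 (0.0546 and 0.156). Where a NOD control sample is left out, the 1 that remains is assumed to vary like the samples of the other group.

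Cell makeup moved with that result. pDC, with no C1q, were 46 of 257 myeloid cells with the knockout label, against 9 of 229 in NOD control, and without pDC the C1qa log2 fold change was -0.49 (edgeR adjusted p = 0.235). Within MC, 5 resident nerve macrophage markers (Pf4, Cbr2, Folr2, Lyve1, F13a1) summed to 231 CPM with the knockout label (range 179 to 300), against 2707 CPM in NOD control (2687 to 2753), and none was at 0. The 6 monocyte and granulocyte markers summed to 3646 CPM (range 3069 to 4208) with the knockout label, against 1860 CPM (1499 to 2017) in NOD control. Its members did not all differ in that direction: Plac8 was at 1979 CPM with the knockout label and 531 CPM in NOD control and Ly6c2 at 321 and 14.1 CPM, while S100a8 was at 408 and 401 CPM, S100a9 at 380 and 411 CPM and Chil3 at 53.5 and 94.9 CPM. The part of either list in the C1q levels was not tested.

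C3 was higher in labelled myeloid cells without passing. It had 73.7, 84.4 and 76.0 CPM (17, 19 and 16 UMIs) in the libraries labelled Icam1 knockout, against 11.2 and 29.3 CPM (1 and 6 UMIs) in NOD control. The groups did not overlap, and MC alone held those UMIs, at 96.2 ± 11.6 CPM with the knockout label (SD, n = 3), against 20.9 ± 13.2 CPM in NOD control (SD, n = 2). The log2 fold change was 1.53 ± 0.51 (SE, edgeR adjusted p = 0.0525), and among MC without pDC it was 1.89 (adjusted p = 0.016). With the knockout label 39.1% of all C3 UMIs were in MC and 31.6% in fibro.

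Of the 35 other complement genes, 12 could be tested in myeloid cells, where 1 was higher and 2 were lower, beside 16.4% of all 3514 genes called. Their median log2 fold change was -0.55, beside 0.04 over all genes tested. Cfb, factor B of the alternative pathway convertase, had 143, 142 and 157 CPM in the libraries labelled Icam1 knockout (33, 32 and 33 UMIs) and 0 UMIs in both NOD control samples. All 98 UMIs were on 1 side, an at least 14.4-fold higher level against 3 counts over the NOD control group (edgeR adjusted p = 5.9e-05). Cfp, properdin, which stabilises that convertase, had 260, 311 and 285 CPM in the libraries labelled Icam1 knockout, against 729 and 738 CPM in NOD control. The groups did not overlap, and Cfp fell by 1.52 ± 0.21 on the log2 scale (SE, edgeR adjusted p = 0.000107). Lrp1, a scavenger receptor, had 30.4, 17.8 and 33.3 CPM in the libraries labelled Icam1 knockout, against 67.3 and 92.9 CPM in NOD control, without overlap, and fell by 1.78 ± 0.47 (SE, edgeR adjusted p = 0.0178), a call lost with DESeq2 (0.123), without NOD control 2 (0.36) and with the labelled libraries summed (0.107).

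**Figure D2:**
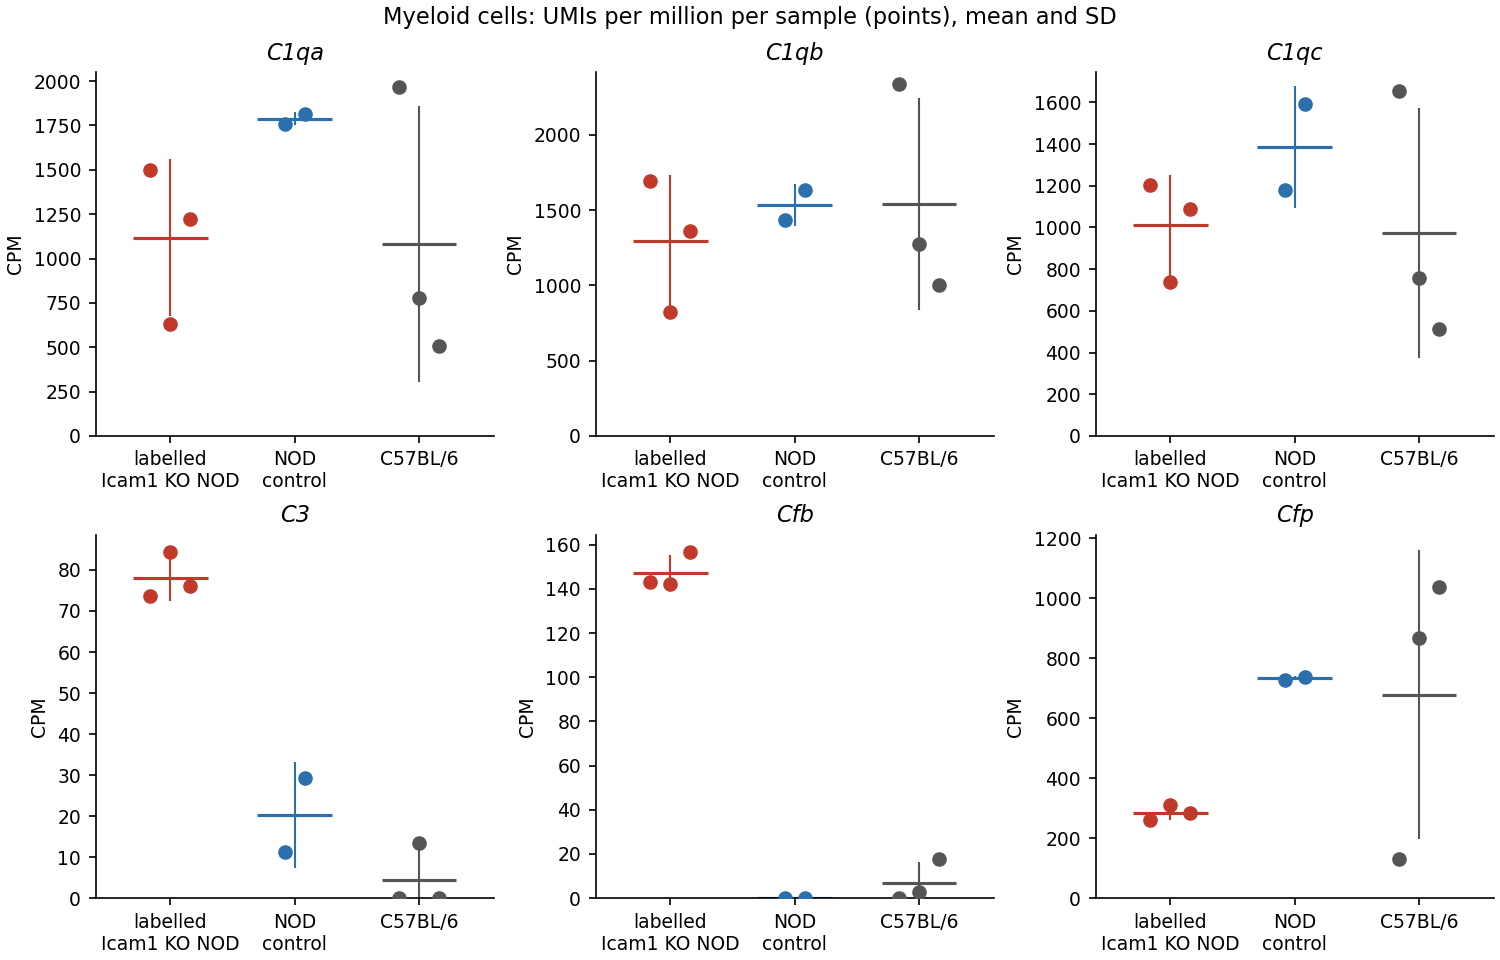
CPM in myeloid cells per sample (points) for the C1q chains, C3, Cfb and Cfp, with the group mean (horizontal line) and SD (vertical bar), for the libraries labelled Icam1 knockout, NOD control and C57BL/6. Cfb points lie between 142 and 157 CPM with the knockout label, and NOD control points lie at 0; the C57BL/6 points of each C1q chain spread more widely than those of either NOD group.

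Stromal members did not pass in the same comparison. In nmSC Serping1 had 1874, 1367 and 1322 CPM in the libraries labelled Icam1 knockout, against 2036 and 1638 CPM in NOD control, and the groups overlapped. Its log2 fold change was -0.29 ± 0.22 (SE, edgeR adjusted p = 0.498), beside -0.33 ± 0.39 for C1ra (0.683) and 0.25 ± 0.23 for C1s1 (0.603). So 0 of 3 members tested in nmSC were called by edgeR or by DESeq2, where edgeR called 3.9% of 2101 genes, and 0 of the 3 had an unadjusted p under 0.05. Without NOD control 2, which leaves 1 control sample assumed to vary like the labelled libraries, C1ra and Serping1 were called lower (log2 fold change -0.88 and -0.48, edgeR adjusted p = 0.0181 and 0.0325). In nmSC C4b and C3 were counted 24 and 23 times with the knockout label and were too low for the test.

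In mySC C4b had 390, 434 and 143 CPM in the libraries labelled Icam1 knockout, against 0 and 227 CPM in NOD control, and the groups overlapped. The log2 fold change was 0.32 ± 0.44 (SE, edgeR adjusted p = 0.736), and Serping1 differed by -0.23 ± 0.41 (0.811). Of the 2 members tested 0 were called by edgeR or DESeq2 and 0 had an unadjusted p under 0.05, where edgeR called 11.4% of 1711 genes. C2 in mySC was too low for the test: 11 UMIs with the knockout label (50.3, 114 and 26.0 CPM), against 1 UMI in NOD control (0 and 1.80 CPM), a pooled ratio of 31.2 with an exact 95% interval of 4.54 to 1344. In EC 0 of 9 members had enough UMIs for a test, and 2.6% of 538 genes were called.

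Lymphoid cells (BC, CD4 and CD8) had less Serping1 with the knockout label. It was at 10.5, 7.99 and 11.8 CPM in the libraries labelled Icam1 knockout, against 35.0 CPM (1 UMI) and 76.6 CPM (72 UMIs) in NOD control. The groups did not overlap, Serping1 fell by 3.10 ± 0.32 on the log2 scale (SE, edgeR adjusted p = 2.03e-16), and it was the 1 member called of 4 tested, where 19.4% of 8999 genes were called and 8.86% were called lower. Pan fibroblast markers moved with it: they summed to 269 to 357 CPM in BC, CD4 and CD8 of the libraries labelled Icam1 knockout and to 1404 to 1827 CPM in the same types of NOD control, and their part in the result was not tested. Makeup differed too: BC were 1107 of 4442 lymphoid cells with the knockout label and 723 of 1233 in NOD control, and CD8 1294 and 48. Within single types pooled Serping1 was at 11.6 CPM with the knockout label and 84.1 CPM in NOD control in BC, 10.5 and 55.7 CPM in CD4, and 8.38 and 98.9 CPM (5 UMIs) in CD8. Without NOD control 2, Serping1 differed by -1.29 (adjusted p = 0.707). The C1q chains, at 5.53 to 27.5 CPM in the libraries labelled Icam1 knockout and 0 to 13.8 CPM in NOD control, were not called there (adjusted p = 0.482 to 0.985).

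The second comparison set NOD control against C57BL/6, and it shares the NOD control samples with the first. C4b counts were higher in both fibroblast-like types. Its near copy C4a was not analysed, and reads of both strains were counted on the C57BL/6 reference. The part of either in this difference was not tested. In fibro it had 515 and 607 CPM in NOD control 1 and 2, against 212, 175 and 212 CPM in C57BL/6 libraries 1, 3 and 4. The lower NOD control value was above all 3 C57BL/6 values, and the log2 fold change was 1.30 ± 0.32 (SE, edgeR adjusted p = 0.0479). In nmSC C4b had 43.9 and 79.6 CPM in NOD control (35 and 80 UMIs), against 15.1, 13.5 and 11.3 CPM in C57BL/6 (2, 24 and 1 UMIs). The groups again did not overlap, and the log2 fold change was 2.02 ± 0.45 (SE, edgeR adjusted p = 0.016).

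In each of these sets 6 of the 9 members had enough UMIs for the test, and C4b was the 1 called, where 1.82% of 4780 genes in fibro and 2.28% of 7691 in nmSC were called, 0.941% and 1.38% in the higher direction. Both calls were lost with DESeq2 (adjusted p = 0.0734 in fibro and 0.244 in nmSC). The fibro call was also lost without NOD control 1 or 2 (0.0692 and 0.238) and without C57BL/6 library 3 or 4 (0.247 and 0.153), and that in nmSC without NOD control 2 (0.172) or C57BL/6 library 3 (0.369). With fibro and nmSC summed as 1 set the log2 fold change of C4b was 0.27 (adjusted p = 0.741).

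**Figure D3:**
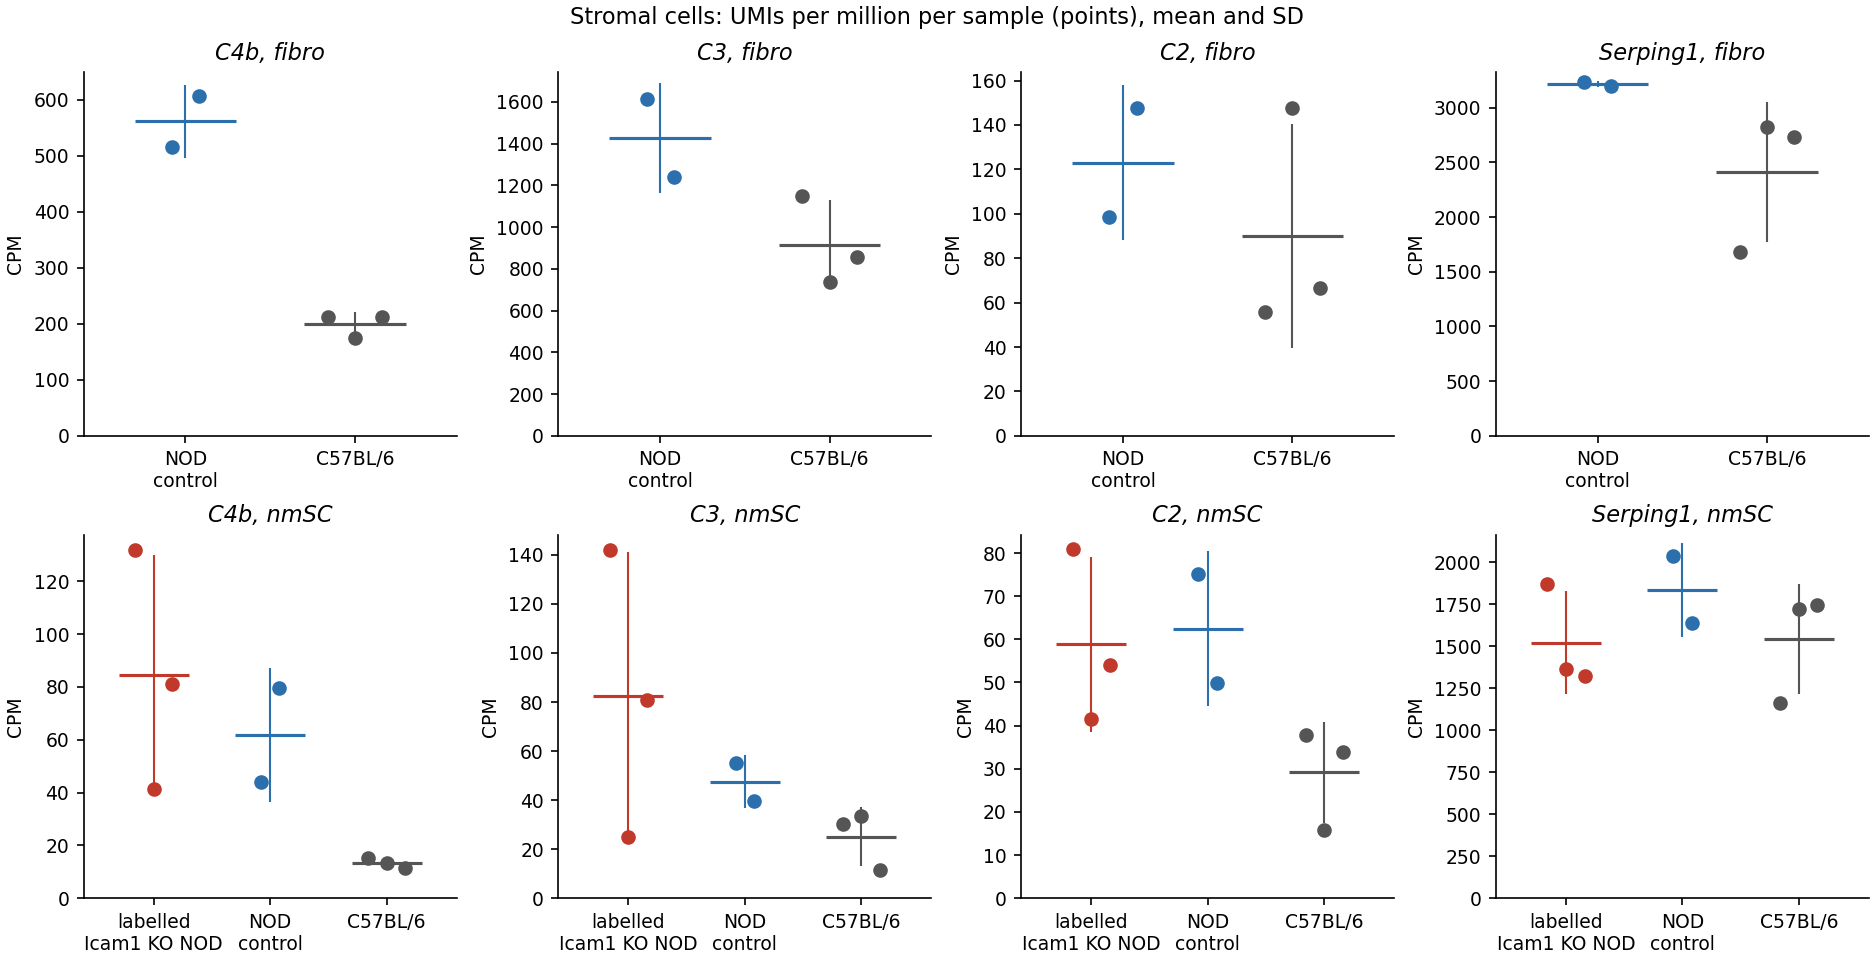
CPM of C4b, C3, C2 and Serping1 per sample (points) in fibro (top) and nmSC (bottom), with the group mean (horizontal line) and SD (vertical bar). NOD control points of C4b lie above every C57BL/6 point in both types, while Serping1 points of nmSC overlap.

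The remaining members of these 2 sets were not called. In fibro C3 had 1614 and 1239 CPM in NOD control, against 1150, 739 and 859 CPM in C57BL/6, so the groups did not overlap, yet the log2 fold change of 0.40 missed the threshold (edgeR adjusted p = 0.841). Serping1 had 3236 and 3194 CPM in fibro of NOD control, against 1679, 2823 and 2733 CPM in C57BL/6, again without overlap (log2 fold change 0.25, adjusted p = 0.934). In nmSC C2 had 75.2 and 49.8 CPM in NOD control, against 37.7, 15.7 and 33.97 CPM in C57BL/6. Those groups did not overlap either, and the log2 fold change of 1.41 ± 0.45 missed the threshold (edgeR adjusted p = 0.141).

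C1q did not differ detectably between the strains. C1qa had 1761 and 1813 CPM in myeloid cells of NOD control, against 1967, 777 and 506 CPM in C57BL/6 libraries 1, 3 and 4, and library 1 lay above both NOD control samples. The log2 fold changes were 0.44 ± 0.64 for C1qa, -0.25 ± 0.53 for C1qb and 0.25 ± 0.60 for C1qc (SE, edgeR adjusted p = 0.903, 0.936 and 0.943). In this set 0 of 3 members tested were called by edgeR or DESeq2 and 0 had an unadjusted p under 0.05, where edgeR called 1.3% of 1687 genes. Without C57BL/6 library 1 C1qa was called higher in NOD control, at a log2 fold change of 1.37 (adjusted p = 0.0413). Resident macrophage markers also varied among MP of C57BL/6, whose sum ran from 700 to 3980 CPM. The C57BL/6 set also held 46 cells named MC beside 228 MP, with S100a8 at 13924 CPM and Pf4 at 0, and without them the log2 fold changes were 0.21 for C1qa, -0.48 for C1qb and 0.02 for C1qc (edgeR adjusted p = 0.957, 0.857 and 0.993). Serping1 was the member tested in EC (log2 fold change 0.92, edgeR adjusted p = 0.88, where 1.96% of 2091 genes were called) and in lymphoid cells (0.64, adjusted p = 1, where 1.79% of 2343 genes were called).

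**Figure D4:**
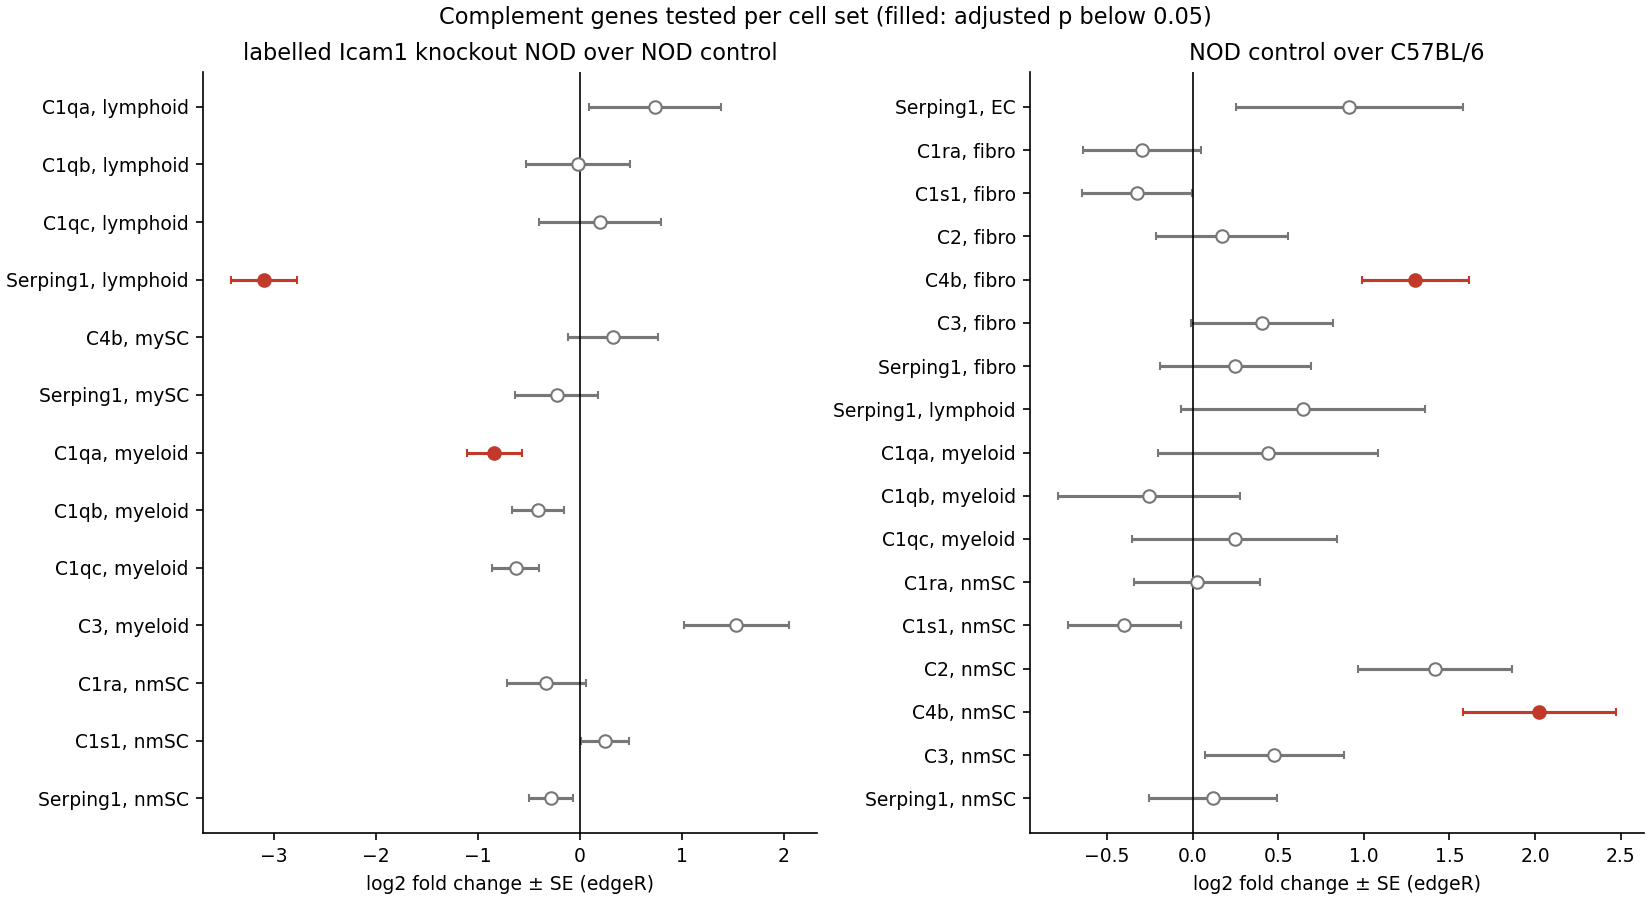
Log2 fold changes with their standard errors for each member tested per cell set, on the left for the libraries labelled Icam1 knockout over NOD control and on the right for NOD control over C57BL/6. Filled red points passed the edgeR test; these were C1qa in myeloid and Serping1 in lymphoid cells on the left and C4b in fibro and nmSC on the right.

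The near copies C1rb and C1s2 gave a further difference between strains. In fibro C1rb had 246 and 454 CPM in NOD control 1 and 2 and 0 UMIs in all 3 C57BL/6 libraries. In nmSC it had 196 and 176 CPM in NOD control and again 0 UMIs in C57BL/6. C1s2 had 79.6 and 112 CPM in fibro and 100 and 87.6 CPM in nmSC of NOD control, against 0 UMIs in both sets of C57BL/6. Against 3 counts over the C57BL/6 group, C1rb was at least 397-fold higher in fibro and at least 123-fold higher in nmSC, and C1s2 at least 106-fold and 62.2-fold. Neither copy had a single UMI in any C57BL/6 cell type.

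With the knockout label, which shares the NOD background, both copies were counted in nmSC, C1rb at 142, 182 and 121 CPM and C1s2 at 162, 82.9 and 121 CPM. The groups overlapped with NOD control for both (edgeR adjusted p = 0.549 and 0.619). Added to C1ra, the sum C1ra + C1rb in fibro was 697 and 695 CPM in NOD control, against 354, 416 and 321 CPM in C57BL/6, without overlap. Its log2 fold change was 0.73 ± 0.32 in fibro and 0.94 ± 0.33 in nmSC (SE, edgeR adjusted p = 0.437 and 0.211). C1s1 + C1s2 differed by -0.01 and -0.07 in these sets (adjusted p = 0.997 and 0.976).

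Gene and copy share most of their coding sequence. Coding sequences matched at 2076 of 2121 aligned bases (97.88%) between C1ra and C1rb and at 1974 of 2064 (95.64%) between C1s1 and C1s2. Of all 57-base windows (the read length of 1 of the sequencers named in the labels) in the last 500 transcript bases, 17.79% of those of C1ra also occurred in C1rb, 40.77% of those of C1rb in C1ra and 15.09% in either direction for C1s1 and C1s2. The last 150 coding bases of the GENCODE transcripts (GRCm38, 5′ to 3′) are shown to let each pair be compared, with the bases that differ in capitals, 1 for the C1r pair and 9 for the C1s pair.
C1ra: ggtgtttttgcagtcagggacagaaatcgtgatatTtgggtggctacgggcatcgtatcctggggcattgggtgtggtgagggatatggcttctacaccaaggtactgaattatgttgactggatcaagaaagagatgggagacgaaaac
C1rb: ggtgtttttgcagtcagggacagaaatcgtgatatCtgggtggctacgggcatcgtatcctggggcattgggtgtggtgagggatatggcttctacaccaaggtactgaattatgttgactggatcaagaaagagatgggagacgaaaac
C1s1: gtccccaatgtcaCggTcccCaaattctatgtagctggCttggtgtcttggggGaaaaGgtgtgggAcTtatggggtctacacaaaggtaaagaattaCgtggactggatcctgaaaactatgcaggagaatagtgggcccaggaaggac
C1s2: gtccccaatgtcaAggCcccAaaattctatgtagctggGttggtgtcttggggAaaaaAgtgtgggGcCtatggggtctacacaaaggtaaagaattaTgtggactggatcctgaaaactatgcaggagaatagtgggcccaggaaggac

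The reference against which the reads were counted is that of C57BL/6, and which sequence of either pair the NOD genome carries was not tested. Reads from windows shared within a pair cannot be assigned to gene or copy, and how they were counted is not given in the sources used here. The split of UMIs within a pair is uncertain to that extent.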

How the data were processed

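Deposited by the authors were UMI counts of every gene in every barcode, for mouse and for rat. Other deposited files hold barcodes, gene symbols, cell type names and, for mouse, group codes, which differed from the library's group for 0 barcodes. Per the submitters' processing notes, Cell Ranger 3.0.2 was used with builds mm10 and Rnor_6.0. How cells were named, and whether doublets or free RNA were removed, is not given in the sources used here. Of 12500 rat barcodes 12360 had a name.

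Sums over the cells of a set in a sample were made in Python 3.11.15 with pandas 2.3.3, numpy 2.4.6 and scipy 1.17.1. Sets with at least 20 cells in every sample went into edgeR 4.0.16 (R 4.3.3) with TMM, filterByExpr with minimum count 10, quasi-likelihood without covariates, Benjamini-Hochberg over all genes tested, threshold 0.05. The comparisons had 3 against 2 samples (knockout label, NOD control) and 2 against 3 (NOD control, C57BL/6). Myeloid cells were MC and pDC in NOD groups and MP and MC in C57BL/6. A fold against a group at 0 was computed against 3 counts over that group. Intervals (Poisson, Clopper-Pearson, 95%) cover counting error only. Tests were also run on simulated data, where 75.3% to 99.4% of the genes set as changed were recovered per cell set. Simulated samples cannot show whether the libraries come from separate animals. DESeq2 1.42.0, RLE factors, no filter, added copies, other cell sets and samples left out were alternatives. Sequences were aligned with biopython 1.88.

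Members and lists were chosen with earlier results of these data known. Named were all members, both copies, other complement genes past the test and up to 4 per role with the highest levels, and the 5 genes most like C1q, C3 and C1s1 among those at 50 CPM in 3 or more sums.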

Additional observations from a re-analysis of the deposited data

Results flagged for a closer look

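C1qa differed in opposite directions in the 2 leukocyte sets of the comparison with the knockout label: every library labelled Icam1 knockout was below both NOD control samples in myeloid cells (log2 fold change -0.84) and above both in lymphoid cells (log2 fold change 0.74), where it was not called (edgeR adjusted p = 0.482). The difference between the sets was not tested. The lymphoid levels were 7.99 to 19.0 CPM in the libraries labelled Icam1 knockout and 0 and 6.38 CPM in NOD control. The origin of these UMIs was not tested.

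Barcodes without a cell type name, which entered no comparison, also carried members. The 123 such barcodes with the knockout label had 145 CPM of C1q and 103 CPM of Serping1, the 53 of NOD control had 433 CPM of Serping1 and 0 C1q UMIs, and the 202 of C57BL/6 had 73.5 CPM of C1q and 951 CPM of Serping1.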

How the results depend on the processing

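Many members had too few UMIs for a test outside their own cell types. Counts of members called changed as follows. In myeloid cells with the knockout label 1 was called, 0 with DESeq2, the replicate block or the labelled libraries summed as 1 sample, 2 without a filter, 3 with control libraries 2-1 and 2-2 apart, and 0 to 1 with a sample left out. In lymphoid cells 1 was called, 5 without a filter, 2 with labelled libraries summed, and 0 to 4 with a sample left out. In nmSC with the knockout label 0 were called, and 0 to 2 with a sample left out. Between strains 1 was called in fibro, 0 with RLE factors, DESeq2 or fibro and nmSC summed, and in nmSC 1, 0 with DESeq2 or the summed set. In fibro, nmSC and myeloid cells, 0 to 1 were called with a sample left out.

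Log2 fold changes turned sign in 33 cases, and the cause was not tested. With the knockout label, C1qb in lymphoid cells was 0.20 with DESeq2, 0.12 without a filter and -0.66 to 7.25 with a sample left out. There Cr2 ran from -1.74 to 7.84 and C1qbp from -1.02 to 0.56, the highest values coming without NOD control 2, where 1 control sample of 49 cells remained. Serping1 in mySC was 0.17 with DESeq2, 0.35 with the replicate block, 0.23 with labelled libraries summed and -0.48 to 6.73 with a sample left out. In nmSC the ranges with a sample left out were -0.059 to 0.36 for C1s1 and -0.88 to 0.41 for C1ra.

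Between strains the ranges with a sample left out were, in fibro, -0.81 to 0.058 for C1ra and -0.21 to 0.80 for C2; in nmSC, -0.77 to 0.63 for C1ra and -0.054 to 0.36 for Serping1; in myeloid cells, -0.076 to 1.03 for C1qc and -0.51 to 0.34 for C1qb; and in lymphoid cells, -0.61 to 0.87 for Serping1. C1ra was 0.73 in fibro with its copy added and -0.18 in nmSC with 2-1 and 2-2 apart. With fibro and nmSC summed, C1ra was -0.54, C2 -0.081, C3 -0.88 and Serping1 -0.14. Of the other gene values, 409 kept direction and side of the threshold, 41 lost a call and 8 gained one, and thinning moved 5 of 8 shares.

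The libraries with the knockout label and those of NOD control share the numbers 1 and 2. Deviations of same-numbered samples correlated at -0.03 to 0.13. With only these 2 numbers shared, such values do not settle whether the numbers pair the libraries. C1qa in myeloid cells was -1.05 (edgeR adjusted p = 0.0695) under the replicate block, where Lrp1 (0.0674) and, in lymphoid cells, Cr2, Itgb2 and C1qbp also lost their calls. No paired analysis was possible because NOD control and C57BL/6 share only number 1. Summed labelled libraries, summed fibroblast sets and MP without MC were chosen after seeing the data.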

Other observations

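Regulators and receptors had cell types of their own. Clu, clusterin, which blocks the terminal complex, averaged 1542 ± 227 CPM in EC with the knockout label (SD, n = 3), 986 ± 217 CPM in EC of NOD control (SD, n = 2) and 1132 ± 183 CPM in EC1 of C57BL/6 (SD, n = 3), and 2824 ± 96.8 CPM in rat vascular EC (SD, n = 2). Cd59a, an inhibitor of the same complex, averaged 1350 ± 373 CPM in mySC with the knockout label (SD, n = 3), 1317 ± 135 CPM in NOD control (SD, n = 2) and 1324 ± 505 CPM in C57BL/6 (SD, n = 2). In EC it was higher in NOD control (1097 ± 26.8 CPM, n = 2) than in C57BL/6 EC1 (289 ± 45.2 CPM, n = 3), with a log2 fold change of 1.81 ± 0.33 (SE, edgeR adjusted p = 0.0141), and it was the 1 called of 5 other complement genes tested there, where 1.96% of all genes were called. That call was lost without filtering (adjusted p = 0.131), without NOD control 1 or 2 (0.0549 and 0.164) and without C57BL/6 library 4 (0.0584). Vtn, vitronectin, averaged 353 ± 69.7 CPM in nmSC with the knockout label (SD, n = 3), 343 ± 85.5 CPM in nmSC of NOD control (SD, n = 2) and 217 ± 115 CPM in nmSC of C57BL/6 (SD, n = 3), and 1162 ± 98.8 CPM in PC of C57BL/6.

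C5ar1 and C3ar1, receptors for the fragments C5a and C3a, averaged 352 ± 126 and 123 ± 32.1 CPM in MC with the knockout label (SD, n = 3), 355 ± 140 and 150 ± 15.5 CPM in MC of NOD control (SD, n = 2) and 213 ± 91.3 and 109 ± 79.2 CPM in MP of C57BL/6 (SD, n = 3). In lymphoid cells Itgb2, the shared chain of complement receptors CR3 and CR4, was higher with the knockout label (log2 fold change 1.32, edgeR adjusted p = 6.94e-06), and Cr2, the B cell receptor for C3d, fell by 1.42, Cd59a by 2.67 and C1qbp by 0.89 (adjusted p = 0.000173, 1.36e-09 and 0.00033), which were the 4 called of 6 tested, where 19.4% of all genes were. Without NOD control 2 none of the 4 passed (adjusted p = 0.645 to 0.731), and with DESeq2 Cd59a alone did (0.0235). Over the 12 alternatives Itgb2, Cr2 and C1qbp were called in 8 and Cd59a in 10, and with the labelled libraries summed none of the 4 was called. Cell makeup differed beside these values: with the knockout label BC were 24.9% and CD8 29.1% of lymphoid cells, against 58.6% and 3.89% in NOD control. Within BC, Cr2 was at 88.0 CPM with the knockout label, against 85.7 CPM in NOD control. Itgb2 was at 82.2 CPM in BC, 213 CPM in CD4 and 399 CPM in CD8 with the knockout label, against 43.7, 142 and 119 CPM (6 UMIs) in the same types of NOD control. Cd59a was at 8.31 CPM in BC and 8.52 CPM in CD4 with the knockout label, against 45.4 and 52.6 CPM in NOD control, and C1qbp at 59.0 and 82.2 CPM, against 89.1 and 158 CPM. Myelinating Schwann markers, whose cells had Cd59a at the levels above, summed to 56.5 to 87.2 CPM in BC, CD4 and CD8 with the knockout label, against 514 to 807 CPM in NOD control. The part of makeup or of these markers in the 4 calls was not tested. In rat PF4 MC Cfd, factor D, was at 1636 ± 150 CPM and Fcna, ficolin A, at 921 ± 125 CPM (SD, n = 2 each). In mouse macrophage types Fcna was at 1.82 ± 3.15 CPM with the knockout label (SD, n = 3), 35.8 ± 15.0 CPM in NOD control (SD, n = 2) and 20.5 ± 8.1 CPM in C57BL/6 (SD, n = 3), and Cfd is listed at 0 UMIs in every mouse cell type. Whether Cfd could be counted with the mouse annotation was not tested.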
